A study of Mus musculus with 6 samples.

Results

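Imprinted genes are expressed from one parental allele, and the 38 examined here lie outside the Dlk1-Meg3 locus in 16 imprinted clusters on 9 mouse chromosomes. They were taken by name from the 24594 entries of the deposited count table. In all, 37 matched by symbol, and Nespas matched as a synonym of the RefSeq gene Gnasas1. By their usual expressed allele in mouse, 21 are paternal, 10 are maternal, and 7 depend on isoform or tissue or are imprinted in some tissues only. Their values were measured as nuclear RNA-seq counts in 3 cKO libraries, labelled Ezh1(cKO/cKO);Neurod1-Cre, and 3 WT libraries, labelled Ezh1(wt/wt);Neurod1-Cre. Both groups were cerebellar nuclei from mice aged 7 months, sorted for the neuronal nuclear antigen NeuN and labelled as granule cells, small excitatory neurons that make up most of the cerebellum's neurons. Both carry the Neurod1-Cre recombinase, so WT means wild type for Ezh1 only. Which part of Ezh1 was removed is not in the labels, nor is whether each library is a separate animal, so p-values reflect the spread of these samples alone, part of which may be technical.

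At an imprinted cluster, DNA methylation placed in only one parent's germ cells marks a control region, and often a long noncoding RNA or an insulator then sets which neighbouring genes that chromosome expresses. The mark is kept after fertilisation by the zinc finger protein ZFP57 with its partner TRIM28, while some genes, Sfmbt2 among them, are instead silenced on the maternal allele through histone H3K27 trimethylation in the early embryo and placenta. Ezh1 is one of the enzymes of PRC2, which places H3K27 methylation as part of the Polycomb system, and the study asks whether neurons that no longer divide depend on it. Counts per gene do not separate the parental alleles, so nothing here measures the loss or gain of imprinting itself.

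Library totals ranged from 6340236 to 6827022 counts in cKO and from 6682805 to 8284768 counts in WT. Levels in CPM are counts scaled to 1000000 counts of a library with its TMM factor, which corrects for differences in composition. Replicate 1 of each genotype stood apart, with Xist, which coats the inactive X chromosome, at 831 CPM for cKO and 811 CPM for WT, while the other libraries had at most 1.54 CPM in cKO and 4.46 CPM in WT. The sum of 4 Y-linked genes was 2.45 CPM in cKO replicate 1 and 1.51 CPM in WT replicate 1, against 137 and 148 CPM in the other cKO libraries and 123 and 131 CPM in the other WT libraries. Replicate 1 is thus not the animal of replicates 2 and 3 in either genotype, and whether those 2 are separate animals is not in the labels. Ezh1 averaged 53.0 ± 2.34 CPM over the cKO libraries and 76.6 ± 6.19 CPM over the WT libraries (SD, n = 3 each), a log2 fold change of -0.53 (adjusted p = 0.00672 by edgeR's quasi-likelihood test with Benjamini-Hochberg adjustment), and lost its call without cKO replicate 1 (adjusted p = 0.0833) or WT replicate 3 (0.115). Summed CPM of 12 granule cell markers was 4974 to 5932 in cKO and 5092 to 5250 in WT, and markers of 8 other cerebellar cell types, none at 0 in all libraries, overlapped between the genotypes as well. Of the granule cell markers Neurod1 alone was called, with means of 307 CPM for cKO and 142 CPM for WT (adjusted p = 8.03e-10, edgeR). Eomes, a unipolar brush cell marker, was separated, with means of 20.5 CPM for cKO and 10.3 CPM for WT (adjusted p = 0.0868, edgeR), and its part in the results was not tested. In a sorted bulk sample, fewer cells of a type and less RNA per cell cannot be told apart.

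Zdbf2 was the 1 imprinted gene called at an adjusted p below 0.05, and it was higher in cKO. None was called lower. Of the 38 genes, 28 had enough counts to be tested and 10 did not. Across the whole experiment 76 of 13115 tested genes were called (0.579%), 42 of them higher (0.320%) and 34 lower (0.259%). That count ran from 13 without WT replicate 3, 14 without cKO replicate 1 and 18 without WT replicate 2 to 150 without cKO replicate 2 and 249 without WT replicate 1. The median log2 fold change, cKO over WT, was 0.01 over the tested imprinted genes and -0.006 over all tested genes, and the median absolute log2 fold change was 0.18 over the imprinted genes and 0.15 over all. For 21 of the 28 genes (75.0%) the whole 95% interval lay within a 2-fold change either way, beside 81.0% of all tested genes. The remaining 7 were Zdbf2, Zim1, Igf2, H19, Ndn, Mkrn3 and Peg10.

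An unadjusted p below 0.05 was found for 6 of the 28 genes (21.4%), beside 11.9% of all tested genes. They were Zdbf2, Usp29, Kcnq1ot1 and Ube3a with positive log2 fold changes, and Mkrn3 and Copg2 with negative ones. All 3 cKO libraries lay above all 3 WT libraries for 4 genes, namely Zdbf2, Usp29, Kcnq1ot1 and Plagl1, where 7.88% of all tested genes were separated in that direction. All 3 cKO libraries lay below all 3 WT libraries for Mkrn3 and Impact, where 8.39% of all tested genes were separated in that direction. The 6 separated genes (21.4%, beside 16.3% of all tested genes) are among the 17 tested genes of the paternally expressed class, and no difference between the classes was tested.

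**Figure D1:**
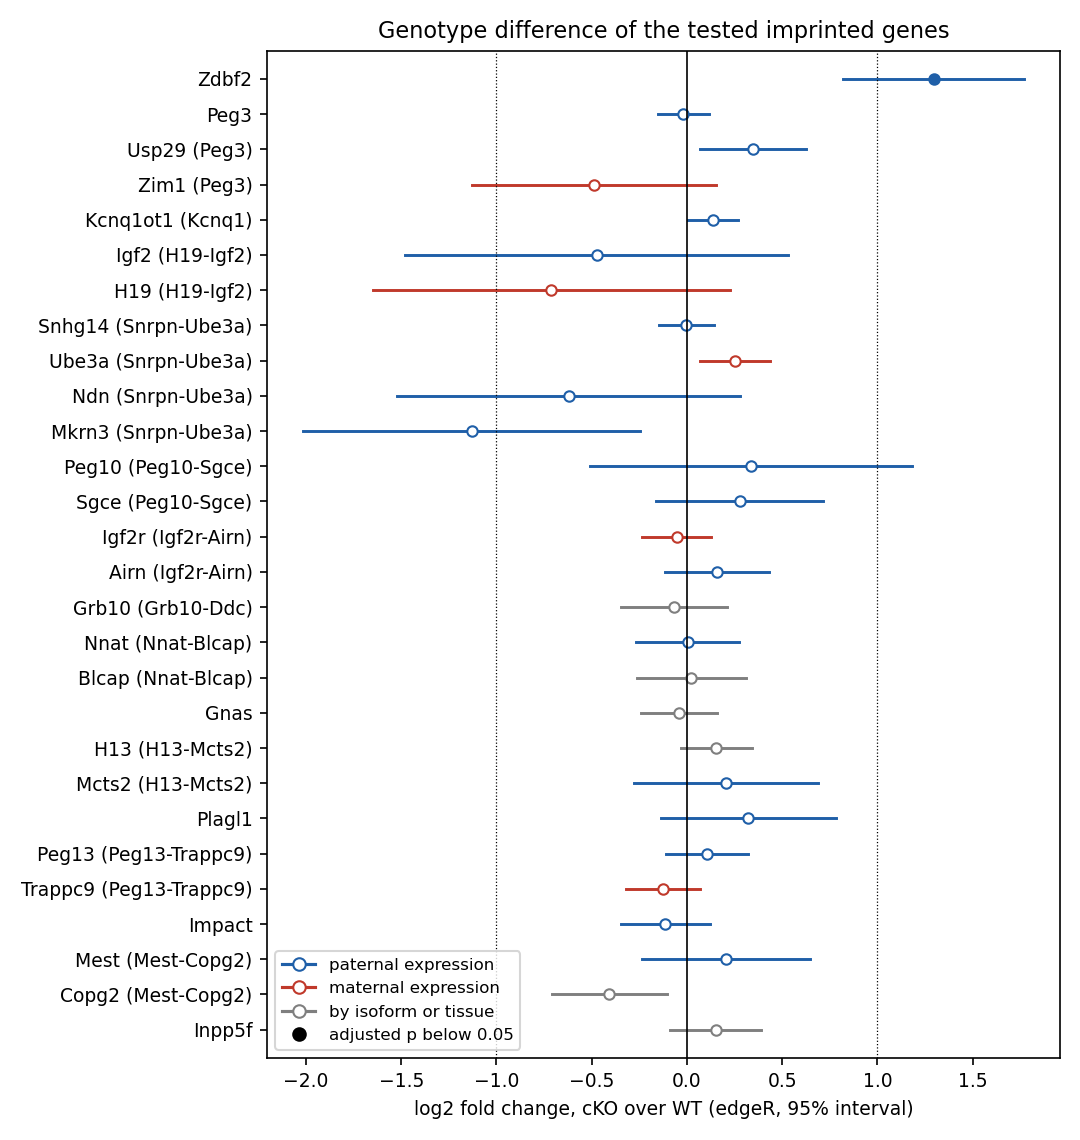
Log2 fold change, cKO over WT, with its 95% interval from edgeR for each of the 28 tested imprinted genes, with the cluster in brackets and colour by expressed allele; dotted lines mark a 2-fold change and the filled point an adjusted p below 0.05. Zdbf2 at 1.29 is the only filled point, and the intervals of 21 genes lie between the dotted lines.

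**Figure D2:**
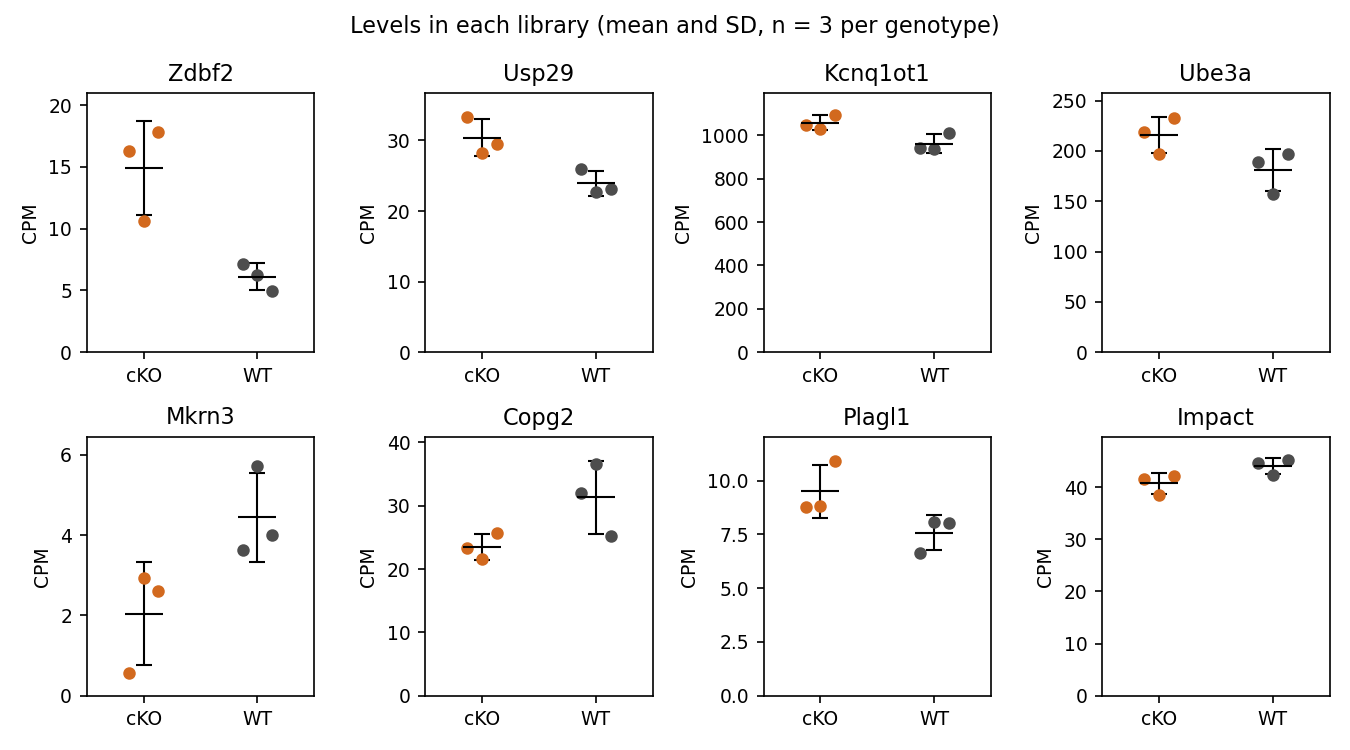
CPM in each library of the 8 genes with an unadjusted p below 0.05 or with separated genotypes, cKO left and WT right in each panel, with mean and SD (n = 3 each) and axes from 0. The points do not overlap for Zdbf2, Usp29, Kcnq1ot1, Mkrn3, Plagl1 and Impact, and they overlap for Ube3a and Copg2.

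Zdbf2 (NCBI gene 73884; chromosome 1, 63200358 to 63314576, GRCm38, forward strand) encodes a zinc finger protein expressed from the paternal allele, with a role in feeding and growth of newborn mice through the hypothalamus. In mouse, a long isoform called Liz starts upstream of the gene's usual promoter, and its transcription in the early embryo is known to replace H3K27 methylation there by DNA methylation, which lets the gene be expressed later. RefSeq (GRCm38.p6) gives the gene 2 annotated starts, 72911 bases apart. Their windows, each of 250 bases before the start and 50 after it, are shown because Zdbf2 is the called gene. Capitals mark the ZFP57 hexamer TGCCGC on either strand (GCGGCA where it lies on the other strand).
Zdbf2 upstream start, chr1:63200108-63200407, forward strand: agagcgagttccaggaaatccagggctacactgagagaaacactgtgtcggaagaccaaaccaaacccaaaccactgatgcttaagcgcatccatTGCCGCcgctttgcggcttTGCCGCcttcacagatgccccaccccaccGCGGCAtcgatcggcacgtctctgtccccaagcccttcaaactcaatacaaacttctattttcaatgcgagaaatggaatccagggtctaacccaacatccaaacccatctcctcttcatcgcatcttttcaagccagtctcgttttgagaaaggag
Zdbf2 downstream start, chr1:63273019-63273318, forward strand: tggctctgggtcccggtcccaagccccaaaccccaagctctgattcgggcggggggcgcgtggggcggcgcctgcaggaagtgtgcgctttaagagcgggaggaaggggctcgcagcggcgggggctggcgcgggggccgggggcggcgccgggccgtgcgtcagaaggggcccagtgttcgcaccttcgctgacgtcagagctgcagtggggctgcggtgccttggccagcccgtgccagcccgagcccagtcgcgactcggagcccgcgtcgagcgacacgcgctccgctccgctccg
The upstream window holds 15 CpG dinucleotides and 3 matches to the hexamer. The downstream window holds 38 CpG, a number that 4.95% of all 32841 RefSeq promoter windows reach, and has no match to the hexamer. Neither holds the YY1 core GCCATNTT on either strand. The hexamer is found in 11.6% and the YY1 core in 6.05% of all windows, and a match describes letters only, with no measure of binding.

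Zdbf2 had 113, 69 and 116 counts in the cKO libraries, or 16.3, 10.7 and 17.9 CPM. It had 47, 45 and 41 counts in the WT libraries, or 7.10, 6.27 and 4.98 CPM. The lowest cKO library, replicate 2, was above the highest WT library, replicate 1. The log2 fold change was 1.29 (SE 0.23, 95% interval 0.82 to 1.77), which is a ratio of means of 2.44, with an adjusted p of 0.00481 in the edgeR quasi-likelihood test. By p it ranked 16 among the 13115 tested genes. The call was lost without cKO replicate 1 (log2 fold change 1.23, adjusted p = 0.0742, edgeR) and without WT replicate 3 (1.16, adjusted p = 0.0957), and DESeq2 gave the gene no adjusted p. Without replicate 1 of both genotypes, the libraries with high Xist, it was 1.35 (adjusted p = 0.048). Within each genotype the order of the libraries was that of several summed marker levels. For 8 oligodendrocyte markers these were 401, 310 and 688 CPM in cKO and 443, 380 and 251 CPM in WT. Microglia markers summed to 22.0, 21.5 and 26.5 CPM in cKO and 33.1, 19.5 and 16.9 CPM in WT. Vessel and meninges markers summed to 20.3, 15.8 and 31.2 CPM in cKO and 34.8, 28.4 and 23.8 CPM in WT. The other marker lists did not have this order. Each of these sums overlapped between the genotypes, and the part of such cells in the result was not tested.

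The genes around Zdbf2 did not pass the test. Of its neighbours within 500000 bases, 7 were tested, and their log2 fold changes ran from -0.21 for Eef1b2, a translation elongation factor gene, to 0.17 for Fastkd2, a gene of mitochondrial RNA biology. All 7 intervals lay within 2-fold. Gpr1, an imprinted receptor gene whose span overlaps that of Zdbf2 by 22921 bases, had 2, 5 and 1 counts in cKO and 0, 5 and 4 counts in WT and was below the filter.

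The Peg3 cluster on chromosome 7 holds Peg3, a paternally expressed zinc finger gene known for maternal care and growth, Usp29, a paternally expressed gene of the ubiquitin-specific protease family that runs the other way, and Zim1, a maternally expressed zinc finger gene. The starts of Peg3 (NCBI gene 18616) and Usp29 (57775) in the RefSeq promoter table lie 164 bases apart and point away from each other, and their windows share 263 bases. The window is shown because both genes read out from it, and it has no match to the ZFP57 hexamer or to the YY1 core as written above.
Peg3 and Usp29 shared start, chr7:6730370-6730669, reverse strand: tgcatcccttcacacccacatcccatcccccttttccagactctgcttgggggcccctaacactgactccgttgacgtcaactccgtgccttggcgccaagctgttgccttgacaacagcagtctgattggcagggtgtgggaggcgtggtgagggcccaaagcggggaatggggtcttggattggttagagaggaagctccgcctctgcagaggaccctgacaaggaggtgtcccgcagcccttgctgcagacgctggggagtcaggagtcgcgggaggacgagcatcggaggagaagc
The window holds 13 CpG. Usp29 had 33.4, 28.3 and 29.6 CPM in cKO and 26.0, 22.7 and 23.2 CPM in WT. Every cKO library was above every WT library, by a log2 fold change of 0.35 (SE 0.14, 95% interval 0.07 to 0.62) that did not pass after adjustment (adjusted p = 0.280, edgeR). Peg3 had 1214, 1162 and 1265 CPM in cKO and 1130, 1262 and 1295 CPM in WT, which overlapped. Its log2 fold change was -0.02 with an interval of -0.15 to 0.12.

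The ratio of Usp29 to Peg3 within a library does not depend on the scaling, and such ratios were computed for 11 pairs. The 3 that were separated by genotype have no test. By their levels 16.3% of all tested genes were separated in either direction, which is another measure, and ratios of other gene pairs were not computed. On the log2 scale the ratio of Usp29 to Peg3 was -5.18, -5.36 and -5.42 in cKO and -5.44, -5.80 and -5.80 in WT. Each cKO library was thus above each WT library, by 0.36 on average. The nearest values, of cKO replicate 3 and WT replicate 1, were close together. Zim1 had 3.88, 3.55 and 4.93 CPM in cKO and 3.63, 6.83 and 6.80 CPM in WT. WT replicate 1 lay among the cKO libraries, and the log2 fold change of -0.49 had an interval of -1.13 to 0.15. Usp29 overlaps the noncoding gene Zim3, which held 10 counts in all 6 libraries.

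Kcnq1ot1 (NCBI gene 63830; chromosome 7, 143213111 to 143296547) is the paternal long noncoding RNA that is known to silence the genes of the Kcnq1 cluster on the paternal chromosome, in part with Polycomb complexes in the placenta. It had 1047, 1031 and 1096 CPM in cKO and 940, 936 and 1012 CPM in WT. The cKO libraries were all above the WT libraries, with a gap that was small next to the level. The log2 fold change was 0.14 (SE 0.06, 95% interval 0.00 to 0.27), and the adjusted p was 0.401 (edgeR). Kcnq1, the potassium channel gene inside which it lies in antisense, had 8, 0 and 5 counts in cKO and 8, 4 and 6 counts in WT.

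The 3 maternally expressed genes of that cluster were below the filter. Cdkn1c, a cyclin-dependent kinase inhibitor gene, had 4, 1 and 2 counts in cKO and 2, 9 and 1 counts in WT. Phlda2, a restrainer of placental growth, had 1 count in cKO and 0 in WT over the 3 libraries of each, and Slc22a18, a transporter family gene, had 2 in cKO and 0 in WT. A sum of 0 allows a level of up to 0.152 CPM over the cKO libraries and 0.135 CPM over the WT libraries, at 3 counts, for counting error only. A difference in these 2 genes was not detectable at this depth.

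The neighbouring H19-Igf2 cluster was also low. Igf2, the paternally expressed fetal growth factor gene, had 16, 11 and 32 counts in cKO and 50, 15 and 24 counts in WT, with a log2 fold change of -0.47 (95% interval -1.48 to 0.53). H19, the maternally expressed noncoding RNA of the same control region, had 6, 12 and 14 counts in cKO and 14, 19 and 26 counts in WT, with a log2 fold change of -0.71 (-1.65 to 0.22). Both genes overlapped between the genotypes. Igf2 was highest in WT replicate 1, where the summed level of 12 vessel and meninges markers was highest too, at 34.8 CPM. That sum was 15.8 to 31.2 CPM in the cKO libraries and 23.8 and 28.4 CPM in the other WT libraries. WT replicate 1 also had the highest sums for Purkinje cells (638 CPM), unipolar brush cells (317 CPM), astrocytes and Bergmann glia (96.6 CPM) and microglia (33.1 CPM). The granule cell, inhibitory interneuron, oligodendrocyte and choroid plexus sums were highest in other libraries. The part of any of these cells in the result was not tested. Without WT replicate 1 the log2 fold change of Igf2 was 0.24.

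The Snrpn-Ube3a cluster on chromosome 7 corresponds to the human region of Prader-Willi and Angelman syndromes. Ube3a (NCBI gene 22215; 59228750 to 59310837), an E3 ubiquitin ligase gene, is expressed from the maternal allele in mature neurons because Snhg14, the long paternal host RNA of small nucleolar RNAs, runs through it in antisense and silences the paternal copy. Ube3a had 219, 197 and 232 CPM in cKO and 189, 158 and 197 CPM in WT. The lowest cKO and the highest WT library met at about the same level, so the groups overlapped. The log2 fold change was 0.25 (SE 0.09, 95% interval 0.07 to 0.44), with an adjusted p of 0.222 (edgeR).

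Snhg14 had 482, 445 and 501 CPM in cKO and 464, 490 and 476 CPM in WT, with full overlap. Its log2 fold change was 0.00 to 2 decimals, with an interval of -0.15 to 0.14. The log2 ratio of Snhg14 to Ube3a was 1.14, 1.18 and 1.11 in cKO and 1.29, 1.64 and 1.27 in WT, so it was lower in each cKO library, by 0.26 on average. The spans of these genes share 38101 bases on opposite strands. The sources used here do not give the use of strand in the counting, and reads there cannot be assigned to one of them with certainty.

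Mkrn3 (NCBI gene 22652), a paternally expressed makorin ring finger gene whose human counterpart restrains the onset of puberty, had 4, 19 and 17 counts in cKO and 24, 41 and 33 counts in WT. In CPM these were 0.576, 2.93 and 2.62 in cKO and 3.63, 5.71 and 4.01 in WT. Every cKO library lay below every WT library, and cKO replicate 1 lay far below the other 2 of its genotype. The log2 fold change was -1.13 (SE 0.43, 95% interval -2.01 to -0.25), with an adjusted p of 0.272 (edgeR).

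Ndn, which encodes the MAGE family protein necdin of postmitotic neurons, lies near Mkrn3 and had 1.73, 4.48 and 2.31 CPM in cKO and 7.56, 2.51 and 3.16 CPM in WT. WT replicate 1, the library with the highest sums of several marker lists given above, was the highest, and the others overlapped. The log2 fold change was -0.62 (-1.52 to 0.28), and it was 0.25 without replicate 1 of both genotypes. The part of other cell types in the result was not tested. Magel2, a MAGE family gene of endosomal sorting, had 16, 2 and 7 counts in cKO and 5, 6 and 10 counts in WT. Peg12 had 3 counts over the cKO libraries and 0 over the WT libraries. Both were below the filter.

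Snrpn, which encodes the splicing protein SmN, had 0, 0 and 2 counts in cKO and 2, 0 and 0 counts in WT. Its whole span of 467683 bases lies inside that of Snhg14, and it also shares 22705 bases with Snurf, which had 4, 6 and 18 counts in cKO and 10, 15 and 10 counts in WT. The sources used here do not give how reads in such shared stretches were counted, and these counts are not a measure of how much Snrpn RNA the nuclei held.

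Among the other pairs of overlapping genes, Peg13 and Trappc9 on chromosome 15 were the ones whose ratio was separated. Peg13 is a paternally expressed noncoding RNA that lies within Trappc9, the host gene for a trafficking complex subunit with a maternal bias in brain. Peg13 had 64.5, 64.7 and 59.4 CPM in cKO and 64.4, 50.6 and 60.5 CPM in WT. Trappc9 had 97.8, 115 and 110 CPM in cKO and 123, 100 and 128 CPM in WT. Each gene overlapped between the genotypes, with log2 fold changes of 0.11 (-0.11 to 0.32) for Peg13 and -0.13 (-0.32 to 0.07) for Trappc9. The log2 ratio of Peg13 to Trappc9 was -0.60, -0.82 and -0.89 in cKO and -0.94, -0.99 and -1.08 in WT, higher in each cKO library. The whole span of Peg13, 4723 bases, lies in that of Trappc9. Reads in the shared stretches of this pair and of the overlapping pairs below cannot be assigned to one gene with certainty either.

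Mest, a paternally expressed gene for a hydrolase-fold protein, and Copg2, a coatomer subunit gene, overlap by 913 bases on chromosome 6. Copg2 had 23.3, 21.6 and 25.7 CPM in cKO and 32.0, 36.6 and 25.2 CPM in WT. WT replicate 3 fell among the cKO libraries, and the log2 fold change was -0.41 (SE 0.15, 95% interval -0.71 to -0.11; adjusted p = 0.236, edgeR). Mest had 15.1, 11.1 and 12.2 CPM in cKO and 13.6, 7.66 and 12.1 CPM in WT, with a log2 fold change of 0.20 (-0.24 to 0.65). The log2 ratio of Mest to Copg2 averaged -0.89 in cKO and -1.52 in WT, and overlapped because WT replicate 3, at -1.06, was above cKO replicate 3, at -1.08.

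Igf2r, the maternally expressed receptor gene that clears IGF2, and Airn, its paternal antisense RNA, share 28396 bases on chromosome 17. Igf2r had 131, 143 and 134 CPM in cKO and 147, 155 and 123 CPM in WT, with a log2 fold change of -0.05 (-0.24 to 0.13). Airn had 73.7, 72.4 and 56.2 CPM in cKO and 74.0, 55.2 and 52.7 CPM in WT, with a log2 fold change of 0.16 (-0.11 to 0.43). Both genes overlapped between the genotypes, as did their ratio. Airn also shares 21044 bases with the gene Mas1. In neurons Igf2r is known to be expressed from both alleles.

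On chromosome 2, both host and nested pairs overlapped between the genotypes. Nnat, the paternally expressed neuronatin gene, had 28.6, 32.7 and 28.3 CPM in cKO and 28.0, 29.0 and 32.4 CPM in WT, and its host gene Blcap had 26.8, 32.0 and 23.1 CPM in cKO and 26.3, 26.6 and 27.6 CPM in WT. Mcts2, a paternally expressed retrogene, had 7.48, 9.57 and 8.62 CPM in cKO and 8.61, 5.99 and 7.65 CPM in WT, and its host H13, the signal peptide peptidase gene, had 99.9, 109 and 95.9 CPM in cKO and 83.4, 89.3 and 101 CPM in WT. The log2 fold changes were 0.00 (-0.27 to 0.27) for Nnat, 0.02 (-0.26 to 0.31) for Blcap, 0.21 (-0.28 to 0.69) for Mcts2 and 0.15 (-0.03 to 0.34) for H13. Gnas, the gene of the stimulatory G protein alpha subunit, had 78.0, 65.2 and 83.7 CPM in cKO and 75.4, 77.6 and 80.4 CPM in WT, with a log2 fold change of -0.04 (-0.24 to 0.16). Its antisense RNA Nespas was below the filter, with 5, 5 and 14 counts in cKO and 1, 11 and 4 counts in WT.

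**Figure D3:**
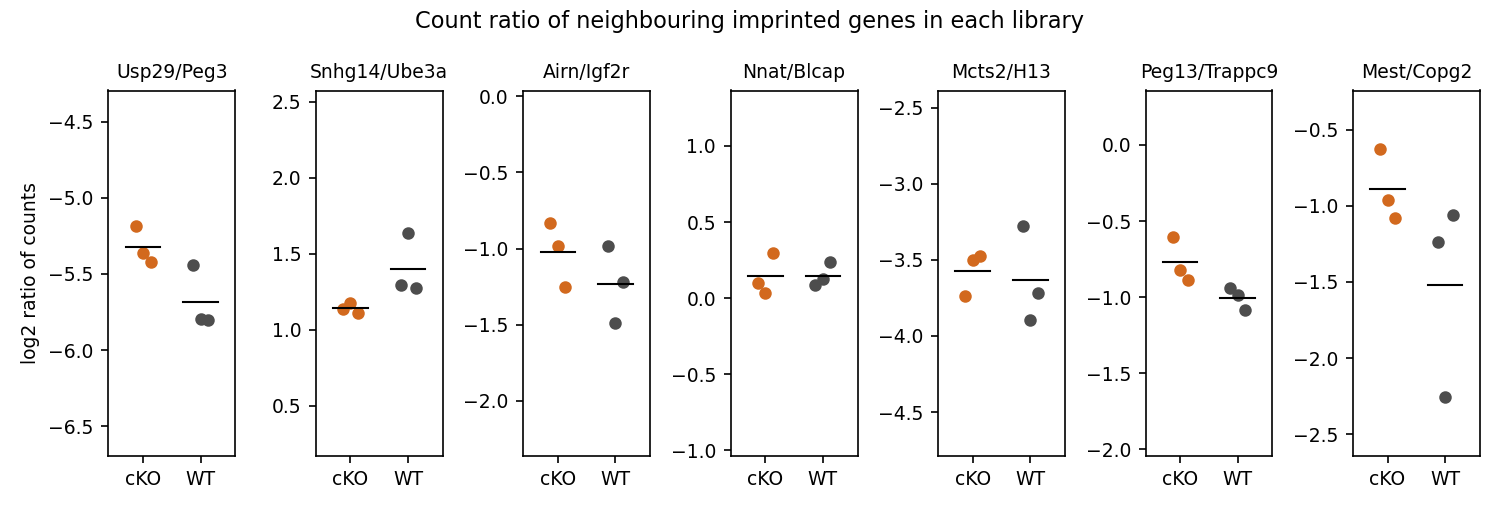
Log2 ratio of counts within each library for 7 pairs of neighbouring or overlapping imprinted genes, cKO left and WT right, with lines at the means of 3 libraries; every panel spans the same range of log2 units. The genotypes are separated for Usp29/Peg3 and Peg13/Trappc9, where cKO is higher, and for Snhg14/Ube3a, where cKO is lower, and they overlap in the other 4 panels.

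Plagl1, a paternally expressed zinc finger gene that regulates other imprinted genes in mouse, had 8.78, 8.80 and 10.9 CPM in cKO and 6.65, 8.08 and 8.01 CPM in WT. The cKO libraries were all above the WT libraries, with a log2 fold change of 0.32 (95% interval -0.14 to 0.78; adjusted p = 0.631, edgeR). Impact, a paternally expressed inhibitor of the GCN2 kinase, had 41.6, 38.4 and 42.2 CPM in cKO and 44.7, 42.4 and 45.2 CPM in WT. These were separated in the other direction by a narrow gap, with a log2 fold change of -0.11 (-0.35 to 0.12; adjusted p = 0.755, edgeR).

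The paternally expressed neighbours Peg10, a retrotransposon-derived gene of placental development, and Sgce, the epsilon-sarcoglycan gene of myoclonus dystonia, had log2 fold changes of 0.34 (-0.51 to 1.18) and 0.28 (-0.16 to 0.71). Peg10 averaged 2.86 CPM in cKO and 2.26 CPM in WT, and Sgce 11.1 CPM in cKO and 9.18 CPM in WT. Neither was separated, while their cluster summed to 15.7, 13.3 and 13.7 CPM in cKO and 12.5, 12.1 and 9.95 CPM in WT, with every cKO library above. Grb10, an adaptor of insulin receptors that is paternal in neurons and maternal elsewhere, averaged 25.9 CPM in cKO and 27.2 CPM in WT (-0.07, interval -0.35 to 0.21). Inpp5f, an inositol phosphatase gene with an imprinted brain isoform, averaged 79.3 CPM in cKO and 71.6 CPM in WT (0.15, interval -0.09 to 0.39). The ankyrin repeat gene Asb4, the calcitonin receptor gene Calcr and the aromatic amino acid decarboxylase gene Ddc were below the filter, with 5, 1 and 3 counts over the cKO libraries and 1, 1 and 10 counts over the WT libraries.

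Summed by cluster, the genes below the filter were kept. The cKO libraries were all above the WT libraries in 4 of 16 clusters, where 7.88% of all tested genes were separated in that direction, and 3 of the 4 repeat a gene already counted. They were Zdbf2 with a ratio of means, cKO over WT, of 2.44, Plagl1 with 1.25, Peg10-Sgce with 1.23, where neither tested gene was separated alone, and Kcnq1 with 1.10, which is nearly all Kcnq1ot1. Impact was the 1 cluster with all cKO libraries below, at 0.924. The Snrpn-Ube3a sum had a ratio of 1.05 and the Peg3 sum of 0.991, both with overlap, and that of H19-Igf2 was 0.674, also with overlap, and 0.984 without replicate 1 of both genotypes. All 38 genes together summed to 3849 ± 126 CPM for cKO and 3720 ± 102 CPM for WT (SD, n = 3 each), a ratio of 1.03, and the genotypes overlapped. Counts of Peg3, Kcnq1ot1 and Snhg14, not corrected for length, made up 71.6% of that sum, and Zdbf2 made up 0.278%.

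**Figure D4:**
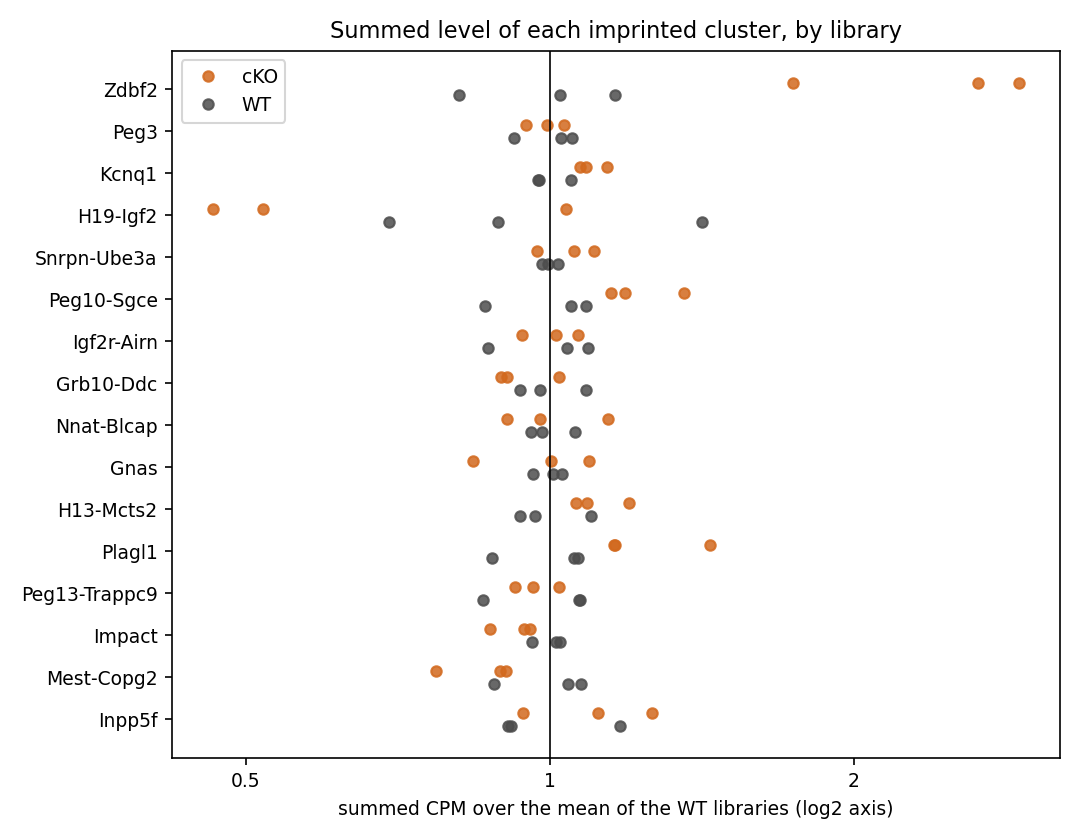
Summed CPM of each of the 16 imprinted clusters in each library, divided by the mean of the WT libraries, on a log2 axis, with cKO points above WT points in each line. The cKO libraries lie apart on the right for Zdbf2, Plagl1, Peg10-Sgce and Kcnq1 and apart on the left for Impact, while H19-Igf2 has the widest spread to the left.

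By expressed allele, 17 paternal genes were tested, 11 with positive and 6 with negative log2 fold changes and a median of 0.14. Of the 5 tested maternal genes, Ube3a alone was positive and 4 were negative, with a median of -0.13. The 6 tested genes of the mixed class were 3 positive and 3 negative, with a median of -0.01. Among all tested genes 48.8% were positive. The summed levels of the classes were close to each other in ratio, cKO over WT, at 1.04 for the paternal, 1.04 for the maternal and 1.02 for the mixed class, and each overlapped between the genotypes. The 4 negative maternal genes were H19, Zim1, Trappc9 and Igf2r, whose intervals all included 0. Igf2r is known to be biallelic in neurons, and with it in the mixed class, a choice made after seeing the data, the maternal median of 4 genes was -0.31. Over the other alternatives, the paternal median lay between 0.018 and 0.25 and the maternal one between -0.23 and -0.024.

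The CpG content of the starts of these genes was described as well. The genes were chosen as imprinted, and DNA methylation kept by ZFP57 marks imprinted control regions. CpG content and the hexamer may therefore not be independent of that choice. RefSeq promoter windows were at hand for 30 of the 38 genes, 46 windows in all. They had a median of 15 CpG, beside 7 over all 32841 windows of 300 bases. The ZFP57 hexamer TGCCGC was found on either strand in 12 of them (26.1%), from 11 genes, beside 11.6% of all windows, and the YY1 core GCCATNTT in 2 (4.35%), beside 6.05%. The hexamer itself holds a CpG, and its shares were not adjusted for the CpG content of the windows. Some windows lie almost on each other and were counted separately, among them matching windows of Mest. No relation of these letters to the fold changes was tested.

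Other genes of imprinting gave few calls. None of 21 further imprinted genes tested was called, and the 2 of smallest p were Ago2, an Argonaute gene that neighbours Peg13 (log2 fold change 0.27, adjusted p = 0.156, edgeR), and Kcnk9, the maternally expressed potassium channel gene of the same cluster (0.34, adjusted p = 0.303, edgeR). At an unadjusted p below 0.05 there were 3 of 21 (14.3%), beside 11.9% of all tested genes. Of 4 tested genes known for imprinting through H3K27 methylation in the placenta, Sfmbt2, which encodes a Polycomb group protein, was called higher, with 51, 57 and 73 counts in cKO and 19, 23 and 19 counts in WT, a log2 fold change of 1.71 (SE 0.29, adjusted p = 0.00310, edgeR). Without WT replicate 3 its adjusted p was 0.0542, and DESeq2 gave it none. Before adjustment 2 of these 4 genes (50.0%) were below 0.05, beside 11.9% of all tested genes, and 0.579% of all tested genes were called. Of 18 tested genes that place or keep imprints none was called, and 1 (5.56%) was below 0.05 before adjustment. Those ranked first were Arid4a, a chromatin gene (-0.23, adjusted p = 0.241, edgeR), and Atrx, a chromatin remodeller gene (-0.13, adjusted p = 0.513, edgeR). Zfp57 itself had a log2 fold change of -0.06 (-0.70 to 0.58), Trim28 of -0.04 (-0.24 to 0.15) and Dnmt1, the maintenance DNA methyltransferase gene, of 0.01 (-0.17 to 0.18).

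Within 500000 bases of the 16 clusters lay 281 other entries, of which 126 were tested. At an unadjusted p below 0.05 there were 22 (17.5%), beside 11.9% of all tested genes. By edgeR none was called higher, and 1 was called lower, Utrn near Plagl1, the utrophin gene of the membrane cytoskeleton. Utrn had 205, 214 and 208 CPM in cKO and 254, 281 and 301 CPM in WT, with a log2 fold change of -0.42 (SE 0.08, adjusted p = 0.00943, edgeR). Its call was lost without cKO replicate 1 (adjusted p = 0.117), WT replicate 2 (0.0592) or WT replicate 3 (0.138). The neighbours had a median log2 fold change of -0.04, beside 0.01 for the tested imprinted genes of the clusters. The neighbours are not a set free of imprinted genes, because many of the further imprinted genes above are among them. Ago2 and Kcnk9 were thus counted below an unadjusted p of 0.05 in both lists. Ipw and Snord64, which lie within the span of Snhg14, were counted as neighbours too.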

How the data were processed

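Subread and the mm10 genome are named per the submitters' processing notes. The authors deposited raw counts of reads per gene for the 6 libraries, named by NCBI gene identifier. The sources used here do not give the gene annotation, the use of strand, or the treatment of reads in overlapping genes or with several map positions. Symbols and positions are from RefSeq (GRCm38.p6), to which 24570 of 24594 entries matched.

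The analysis used edgeR 4.0.16 under R 4.3.3. Genes passing filterByExpr (13115 genes, 99.8% of all counts) were scaled by TMM (factors 0.982 to 1.02) and compared between genotypes by robust quasi-likelihood fits over all 6 libraries with no other term. Adjusted p-values are two-sided Benjamini-Hochberg values over all tested genes, called below 0.05. The procedure was first tested on simulated counts. Log2 fold changes and 95% intervals are from the same fit. Sums by cluster, allele classes and ratios within a library were described with no test, since an exact test of 3 against 3 cannot go below p = 0.1. Within a genotype, chi-square over degrees of freedom was at least 4.03, so no library differed from another by counting error alone. Each library was counted as 1 replicate, though libraries from the same animal could also differ this much.

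Values in each library are given for genes with an unadjusted p below 0.05 or separated genotypes and for overlapping pairs. Of the other lists, called genes or the 2 of smallest p are named, and Zfp57, Trim28 and Dnmt1 were added after their values were seen. The imprinted genes, the lists and the tests were chosen with earlier results of these data known. Alternatives were RLE scaling, library size alone, no filter, DESeq2 1.42.0, a replicate block, each library left out in turn, and replicate 1 of both genotypes left out together, and, added after seeing the data, Igf2r in the mixed class.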

Additional observations from a re-analysis of the deposited data

How the results depend on the processing

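Zdbf2 was the called imprinted gene under RLE scaling, library size alone, no filter and the replicate block, and with replicate 1 of both genotypes left out. DESeq2 called 0 of the 38, but it gave no adjusted p for 26 of them, Zdbf2 among them, so those 26 could not be called. Leaving out 1 library gave 0 to 1. Over all tested genes 76 were called with TMM and edgeR, 277 with no filter, 116 with DESeq2, 43 without replicate 1 of both genotypes, and 13 to 249 with 1 library left out. The log2 fold change of Zdbf2 stayed between 1.15 and 1.49 in the 11 alternatives with edgeR. That of Ezh1 was -0.58 to -0.47 over the 12 alternatives and lost its call without cKO replicate 1 (-0.53) and without WT replicate 3 (-0.47). In the other imprinted and imprint maintenance lists, 1 gene was called, 2 with no filter (Kcnk9 and Sfmbt2), and 0 to 1 with 1 library left out. With DESeq2 it was 0, and Sfmbt2 had no adjusted p there. With Igf2r in the mixed class, an alternative added after seeing the data, the maternal median was -0.31. It was -0.024 without replicate 1 of both genotypes and -0.23 to -0.062 with 1 library left out. Log2 fold changes of single imprinted genes changed sign in 21 gene and alternative combinations, none of them of a called gene. Peg3 was 0.014 with library size alone, and Snhg14 was 0.00042 with RLE scaling, 0.030 with library size alone and 0.00079 with DESeq2. Without replicate 1 of both genotypes, Igf2 was 0.40, Ndn 0.25, Grb10 0.024 and Nnat -0.0087. With 1 library left out, Blcap ranged from -0.11 to 0.13, Gnas from -0.12 to 0.055, Igf2 from -1.03 to 0.24, Igf2r from -0.15 to 0.016, Mest from -0.0028 to 0.36, Nnat from -0.066 to 0.070, Peg3 from -0.075 to 0.021 and Snhg14 from -0.038 to 0.044. Where a fit had fewer libraries or genes that is its construction, and the cause was otherwise not tested. Correlations of deviations were 0.151, 0.00532 and -0.038 for libraries of the same number and -0.103 to 0.107 for different numbers. The largest, 0.151, was between the replicates 1, which share high Xist, and the other same-number values lay within the range of different numbers. With the replicate block 90 genes were called, with Zdbf2 at 1.28 (adjusted p = 0.0128, edgeR). A level near the floor of 3 counts limits Phlda2, Slc22a18, Peg12, Snrpn and Calcr.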

Other observations

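Smim17, a gene near the Peg3 cluster on chromosome 7 that was singled out after its values were seen, had 20, 22 and 20 counts in cKO and 4, 4 and 9 counts in WT. Its log2 fold change was 2.0 (95% interval 0.99 to 3.01), and it did not pass the threshold (adjusted p = 0.0572, edgeR).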
